A study of Mus musculus with 4 samples.

Results

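The calcitonin gene-related peptide (CGRP) and adrenomedullin system of the mouse glomerulus was followed through 7 genes, matched by symbol among the 52636 genes of the deposited count tables. The genes were the peptide genes Calca, Calcb and Adm, the receptor gene Calcrl, and Ramp1, Ramp2 and Ramp3, which encode the accessory proteins of that receptor. They were chosen from their own levels in these libraries by cell class and age, so those levels, and the young against aged differences built on them, are given as a description without a test.

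The samples were single-cell suspensions of kidney glomeruli, trapped with magnetic beads perfused through the heart and sequenced as droplet-based 3' libraries. The 2 young libraries (young 1 and young 2) and the 2 aged ones (aged 1 and aged 2) were all from untreated mice. The labels used here do not give the age in months, the strain, the sex or the number of mice in a library, so any p-value measures only the spread between these libraries. Bead isolation selects vessels and tufts that trap beads, and this sets which kidney cells the samples can hold.

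Adrenomedullin and CGRP are small amidated peptides that relax blood vessels. Both act on 1 receptor protein, the calcitonin receptor-like receptor, which reaches the cell surface only with an accessory protein: with RAMP1 it binds mainly CGRP, and with RAMP2 or RAMP3 mainly adrenomedullin. The receptor raises cyclic AMP in the target cell. Adrenomedullin and its receptor are needed for normal blood and lymph vessels, and adrenomedullin transcription is known to respond to low oxygen. The Calca gene is spliced into either calcitonin or αCGRP, and Calcb encodes βCGRP. UMI counts per gene do not separate the Calca products.

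Calca and Calcb are neighbours that share a nearly identical stretch of coding sequence, where reads are hard to tell apart. In GRCm38, Calca (ENSMUSG00000030669) lies on the minus strand of chromosome 7 from 114631478 to 114636357, and Calcb (ENSMUSG00000030666) on the plus strand from 114718643 to 114723365, with 82285 bases between them. Counted within the transcripts Calca-201 and Calcb-201, exon 4 holds the most alike 60-base stretch within single coding exons. This stretch lies at chr7:114632540-114632599 in Calca and chr7:114721975-114722034 in Calcb. It covers the start of mature CGRP. The stretches are printed from the GENCODE vM21 transcripts, 5′ to 3′, and the capital marks the 1 base that differs.
Calca: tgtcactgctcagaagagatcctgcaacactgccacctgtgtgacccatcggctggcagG
Calcb: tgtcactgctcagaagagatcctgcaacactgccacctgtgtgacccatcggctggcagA
Over the whole coding transcripts the genes are easier to separate, since 33 of the 1260 stretches of 31 bases in Calcb (2.62%) also occur in Calca. Counts of either gene are uncertain to the extent that reads fall in shared stretches.

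Adm (ENSMUSG00000030790) is also on chromosome 7, from 110627661 to 110629820 on the plus strand, with the predicted gene Gm28863 overlapping on the other strand. Calcrl (ENSMUSG00000059588) occupies 84330626 to 84425411 of chromosome 2, minus strand. Ramp1 (ENSMUSG00000034353) is on chromosome 1 from 91179822 to 91225196, plus strand. Ramp2 (ENSMUSG00000001240) spans 101246028 to 101259546 of chromosome 11, plus strand, and overlaps Vps25 on the same strand. Position alone does not tell reads of these genes apart in the shared stretch. Ramp3 (ENSMUSG00000041046) runs from 6658521 to 6677475 of chromosome 11, plus strand, with the predicted gene Gm11978 on the other strand.

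The Calca and Adm promoters are shown because these peptide genes both had higher podocyte levels in the aged libraries. The 250 bases before the start of each are from RefSeq (GRCm38.p6), which had an entry for 5 of the 7 genes. Capitals mark ACGTG or GCGTG, the core that hypoxia-inducible factors bind, and TGACG, a core of the cyclic AMP response element. Both strands were searched, and a TGACG may overlap an ACGTG.
Adm, chr7:110627407-110627656, plus strand: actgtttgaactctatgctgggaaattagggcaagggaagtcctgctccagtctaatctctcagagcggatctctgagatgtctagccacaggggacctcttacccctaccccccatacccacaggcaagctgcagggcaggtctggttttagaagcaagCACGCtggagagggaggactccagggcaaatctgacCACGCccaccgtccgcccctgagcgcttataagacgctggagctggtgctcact
Calca, chr7:114636358-114636607, minus strand: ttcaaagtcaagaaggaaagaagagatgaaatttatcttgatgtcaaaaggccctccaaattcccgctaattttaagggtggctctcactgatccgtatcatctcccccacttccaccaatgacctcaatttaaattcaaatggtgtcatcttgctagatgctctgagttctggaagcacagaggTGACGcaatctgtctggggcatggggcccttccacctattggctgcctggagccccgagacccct
The Adm stretch held the hypoxia core 2 times, both on the reverse strand, and the Calca stretch held 1 TGACG. Of all 32851 promoters of the same length, 38.6% held a hypoxia core and 17.8% a TGACG, so neither match is rare.

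The libraries held 5532 to 10621 barcodes and 18457791 to 42046542 UMIs. After filters, 5035, 6976, 9187 and 6802 cells remained in young 1, young 2, aged 1 and aged 2. Cells were grouped by marker genes without using the 7 genes. The defining markers of podocytes, endothelial cells and mesangial cells were each detected in the clusters named for them. Young 2 stood apart: 59.3% of its cells fell in clusters with markers of more than 1 class and stayed unnamed, against 0.83% to 3.73% in the other libraries, and its median cell had 1257.5 UMIs against 2715 to 3730. Pairs of libraries shared 9 to 31 barcodes. Levels below are in CPM (counts-per-million), the UMIs of a gene scaled to all UMIs in the summed cells of a class, per library. Intervals of levels are 95% exact Poisson ones. The limit that 0 counts allow is instead the CPM of 3 UMIs, which lies below the upper end of that interval. Both cover counting error only. Class sums under 20 cells were not used, which left macrophages with aged libraries only.

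Adm UMIs came mainly from podocytes, the epithelial cells that wrap the glomerular capillaries. Podocytes held 72.5% of all Adm UMIs in kept cells, and 20.2% of all UMIs. The podocyte level was 366.8 CPM in young 1, 370.4 in young 2, 412.8 in aged 1 and 493.2 in aged 2. Both aged libraries were above both young ones, and the fitted log2 fold change was 0.36 (SE 0.14, n = 2 against 2). Without aged 2 that value was 0.20 and without aged 1 it was 0.50.

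The podocytes split into clusters 3 and 6, and Adm was uneven between them. In cluster 3, led by Gas1, Tdrd5 and Arhgap28, it was 437.2 ± 16.3 CPM (SD, n = 2) in young and 504.5 ± 62.6 in aged libraries. In cluster 6, led by Clic3, Cdkn1c and Rab3b, it was 177.0 ± 2.8 and 217.5 ± 17.8. Every library was lower in cluster 6, whose cells had a median of 3314 UMIs against 5939 in cluster 3. The most Adm UMIs in 1 podocyte were 34 in young 1, 38 in young 2, 43 in aged 1 and 52 in aged 2. Podocytes with at least 5 Adm UMIs carried 46.7%, 52.8%, 62.6% and 74.5% of the podocyte Adm UMIs of those libraries, at cell depths that differ between them.

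In the other named classes the Adm level was lower. Endothelial cells had 29.8, 23.8, 24.9 and 32.3 CPM in young 1, young 2, aged 1 and aged 2, and the age groups overlapped. Mesangial cells, the contractile cells between the capillaries, had 31.4, 18.9, 26.6 and 49.1, also overlapping. Endothelial and mesangial levels did not differ beyond the spread of the libraries. The summed podocyte markers in endothelial cells were at 6.01% to 8.64% of their podocyte level, with all 9 detected in each library. That sum mixes genes that were not compared one by one, so it does not measure how much podocyte material these cells held. Its part in the endothelial Adm level was not tested. Adm was at 0 UMIs in T and NK cells of all 4 libraries, where 0 counts allow up to 14.9 CPM in aged 2, the deepest.

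**Figure D1:**
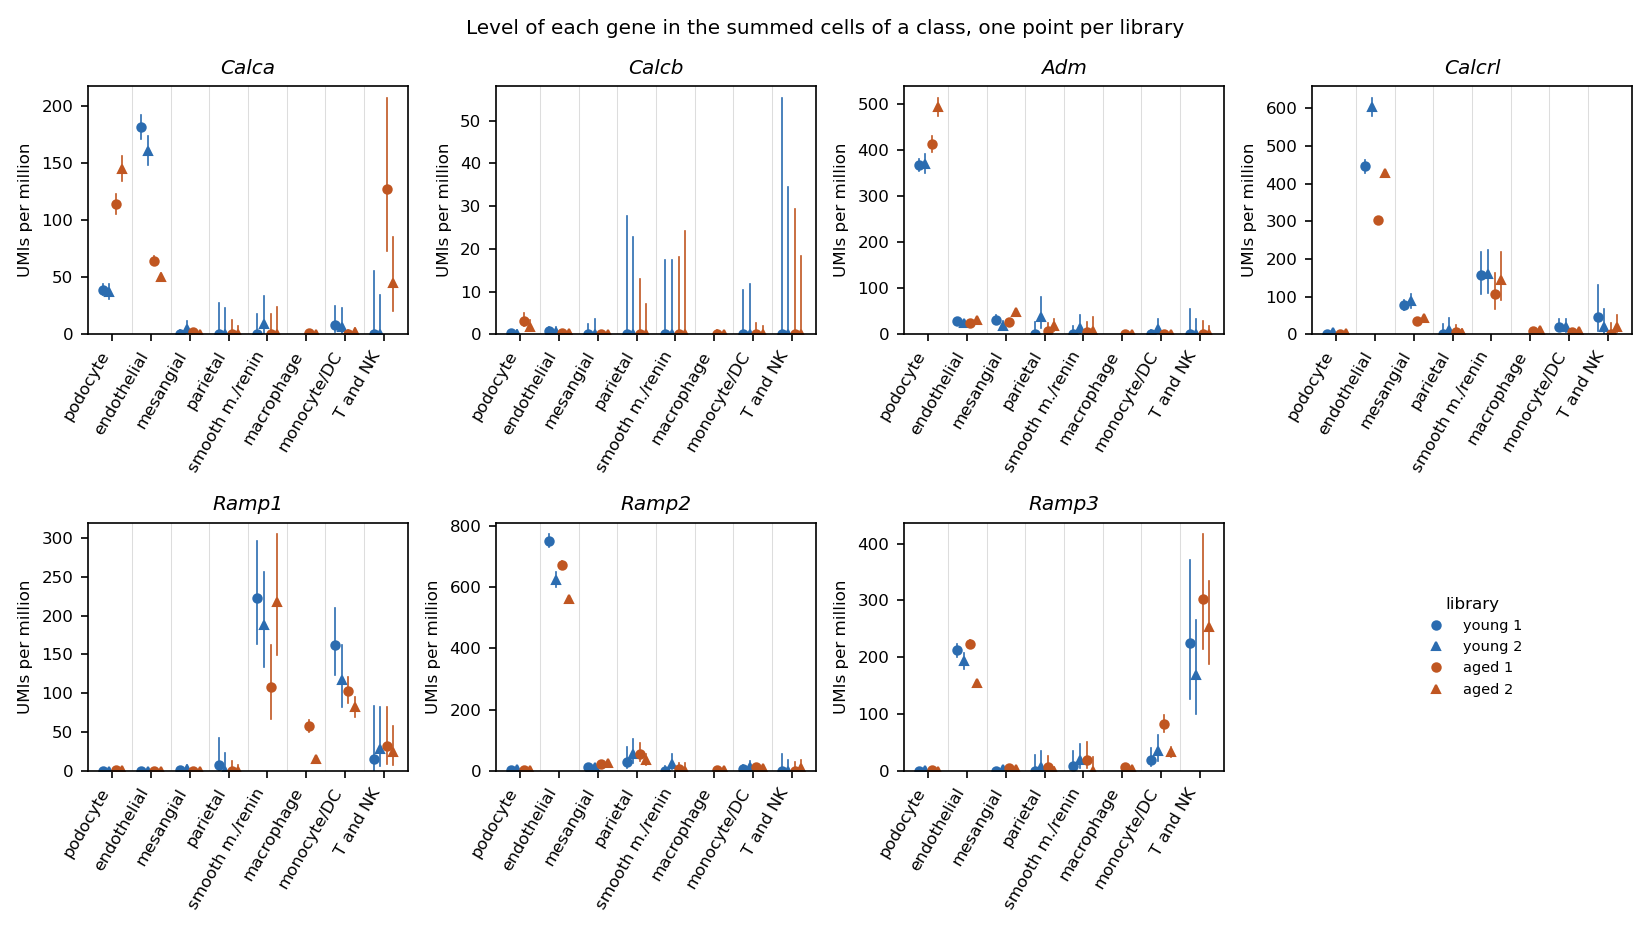
Level of each gene, in CPM within a cell class (y axis), for 8 classes (x axis); each point is 1 library with its 95% exact Poisson interval, young in blue and aged in orange. Adm sits in podocytes, Calcrl and Ramp2 in endothelial cells, and Ramp3 in endothelial and in T and NK cells. Ramp1 sits in smooth muscle and renin and in monocyte and dendritic cells. Calca is higher in aged podocytes and lower in aged endothelial cells.

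Calca was the member whose level moved in opposite directions in the classes that express it. In podocytes it was 39.2 CPM in young 1, 37.4 in young 2, 114.3 in aged 1 and 145.0 in aged 2, a mean of 38.3 ± 1.3 (SD, n = 2) against 129.7 ± 21.7. In endothelial cells it was 181.9, 160.9, 64.3 and 50.6, a mean of 171.4 ± 14.9 against 57.5 ± 9.7. The age groups were apart in both classes. The fitted log2 fold change was 1.80 (SE 0.15) in podocytes and -1.46 (SE 0.15) in endothelial cells. In young libraries endothelial cells had the higher level and in aged libraries podocytes did.

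The values held in direction when any 1 library was left out, at 1.60 to 1.99 in podocytes and -1.64 to -1.29 in endothelial cells. Without young 2, the library that stood apart, they were 1.74 and -1.59. Endothelial markers in the podocyte sums reached 0.33% to 0.78% of their endothelial level. Mesangial markers in the podocyte sums were at 2.02% and 2.21% of their mesangial level in young and 2.80% and 3.76% in aged libraries (7 or 8 of 8 markers detected, Gata3 at 0 in both aged libraries), and mesangial cells themselves had at most 4.97 CPM of Calca.

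Of the 4 members past the count filter in podocytes, Calca was called at an adjusted p under 0.05, where edgeR called 612 of 10908 genes (5.61%). Of the 5 past it in endothelial cells, Calca was again the 1 called, against 801 of 13175 genes (6.08%). The age groups did not overlap for 46% of the genes tested in podocytes and 52.4% in endothelial cells. The members were chosen on this contrast, so nothing is read from these counts. In endothelial cells 0 genes were called at all when young 1 or young 2 was left out, by edgeR's quasi-likelihood test (1974 and 1630 genes at an unadjusted p under 0.05).

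Within podocytes the Calca difference was present in both clusters. Cluster 3 had 37.5, 34.7, 106.7 and 132.0 CPM in young 1, young 2, aged 1 and aged 2, a log2 fold change of 1.77 (SE 0.15). Cluster 6 had 43.2, 46.9, 147.7 and 207.0, a log2 fold change of 1.99 (SE 0.20). The share of podocytes with a Calca UMI, after thinning each cell to 1000 UMIs, was 3.12% and 3.08% in young and 9.38% and 11.8% in aged libraries, and unthinned it was 13.7%, 15.7%, 37.6% and 46.8%. Most positive podocytes held few copies, with 1.26, 1.28, 1.73 and 2.34 Calca UMIs per positive cell. No young podocyte had 5 or more Calca UMIs, while 17 of 992 in aged 1 and 27 of 662 in aged 2 did. These counts and the UMIs per positive cell were not thinned. The median podocyte had 4200 and 5685.5 UMIs in young and 5825.5 and 7685.5 in aged libraries.

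Endothelial Calca was carried by few cells that held many copies. After thinning, 4.78% and 5.85% of young and 1.90% and 1.87% of aged endothelial cells had a Calca UMI (7.13% in young 1 unthinned). The positive cells held 6.73, 4.60, 4.91 and 4.46 UMIs each on average. Cells with at least 5 UMIs, 68 of 2413, 35 of 1446, 54 of 6031 and 46 of 4306, carried 71.0% to 83.0% of the endothelial Calca UMIs. Mesangial cells, which serve as a background, had 1 to 8 Calca UMIs per library, at most 4.97 CPM.

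**Figure D2:**
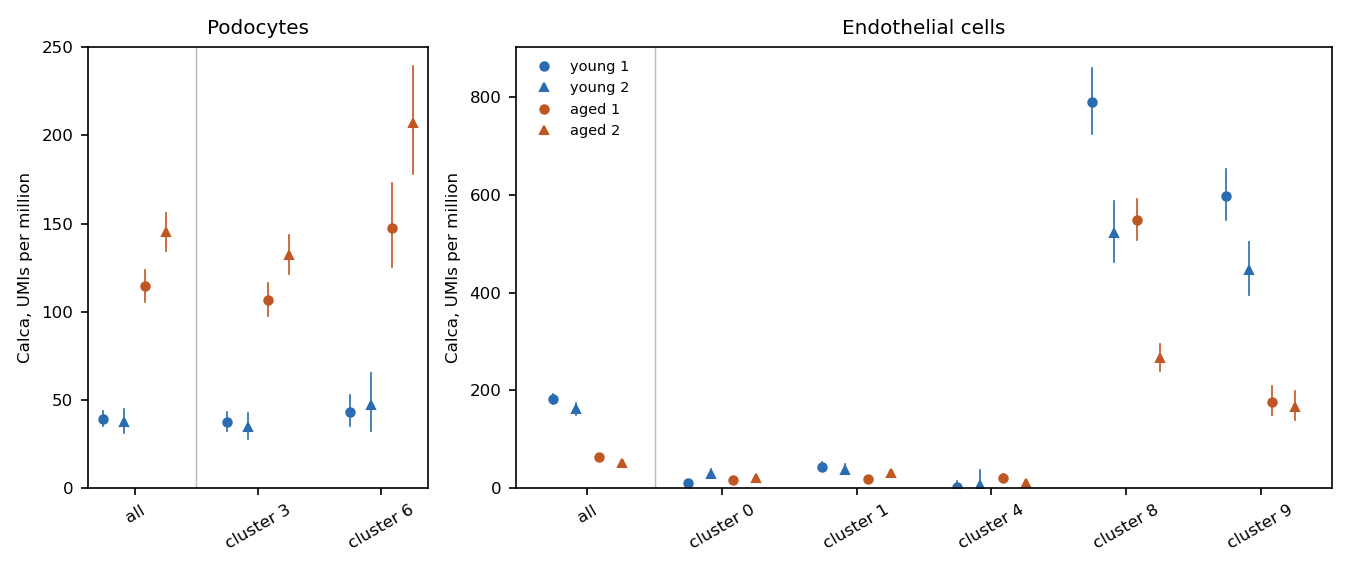
Calca level in CPM (y axis, separate scales) in all podocytes and endothelial cells and in each of their clusters (x axis), 1 point per library with its 95% exact Poisson interval. Both podocyte clusters are higher in both aged libraries, while in endothelial cells the highest levels are in clusters 8 and 9, and the age groups are apart in cluster 9 and overlap in cluster 8.

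The endothelial copies were concentrated in clusters 8 and 9. Cluster 8, led by Tspan8, Thbs2 and Fbln2, was low in the glomerular capillary markers, and cluster 9, led by Atp13a3, Calcrl and Palmd, was high in them. Cluster 9 had 598.5 and 446.7 Calca CPM in young and 176.4 and 166.5 in aged libraries, a log2 fold change of -1.60 (SE 0.20). Cluster 8 had 789.4 and 522.3 in young and 548.4 and 266.5 in aged libraries, and the groups overlapped (-0.57, SE 0.22). A single cell held 150 of the 657 Calca UMIs of cluster 8 in aged 1.

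The other endothelial clusters had little Calca and differed among themselves. Cluster 1, led by Ier5l, Rflna and Id1, had 43.5, 37.0, 18.2 and 30.2 CPM. Cluster 0, led by Sele, Plaur and Gbp4, had 10.99, 28.3, 15.4 and 20.3, with overlap and a log2 fold change of 0.10 (SE 0.30). Cluster 4, led by Esm1, Tgfb2 and Slc45a4, had 4.5 ± 2.9 CPM (SD, n = 2) in young and 15.1 ± 7.3 in aged libraries. These rest on 1 Calca UMI in each young library, from 199 and 61 cells, and on 39 and 17 in the aged ones, from 985 and 604 cells. Cluster 9 made up 327 of 2413 and 259 of 1446 young endothelial cells and 335 of 6031 and 219 of 4306 aged ones. The part of cluster makeup in the class difference was not tested.

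Calca UMIs in T and NK cells were few. The aged libraries had 16 UMIs in 2 of 58 cells and 9 UMIs in 4 of 81 cells, and the young ones had 0 in 29 and 37 cells, which allows up to 45.02 and 28.0 CPM. A difference from aged 2, at 44.8, was not detectable in young 1 at this depth. Parietal epithelial cells had 0 Calca UMIs in all 4 libraries.

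Calcb, the βCGRP gene, was close to undetected. Podocytes had 3, 0, 18 and 9 UMIs in young 1, young 2, aged 1 and aged 2, or 0.39, 0, 3.19 and 1.80 CPM, and the 0 in young 2 allows up to 0.91. Endothelial cells had 5, 2, 7 and 4 UMIs. Of the 51 Calcb UMIs in kept cells, podocytes held 58.8% and endothelial cells 35.3%, the classes that also held most Calca UMIs. Calcb did not pass the count filter in any class.

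**Figure D3:**
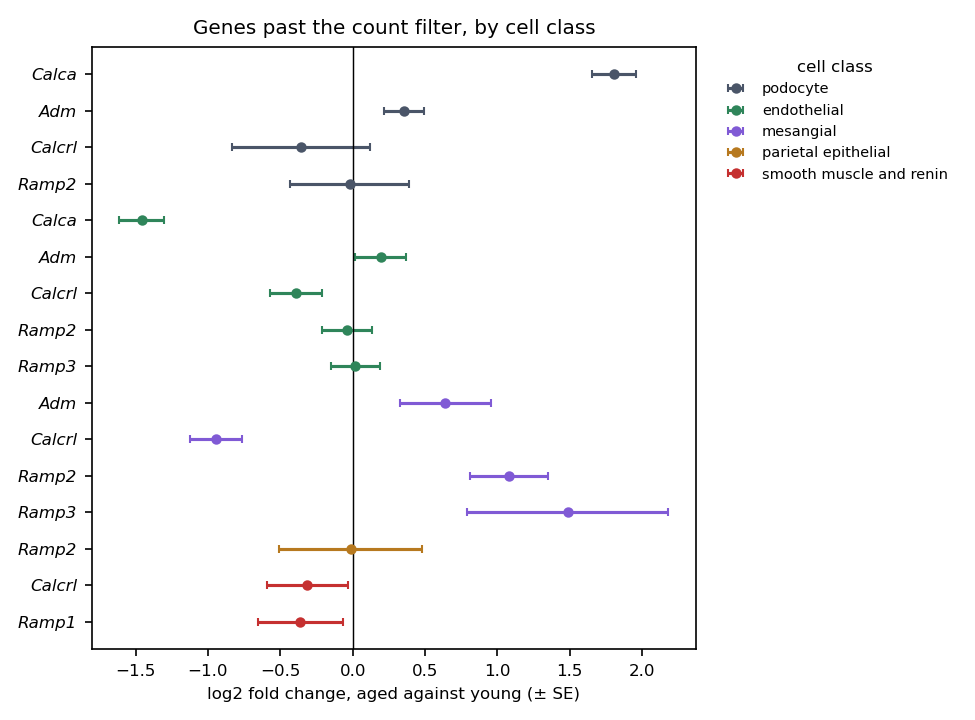
Log2 fold change of aged against young libraries (x axis) with its standard error for each gene that passed the count filter, by cell class (colour; 2 young against 2 aged libraries). Calca lies at 1.80 in podocytes and -1.46 in endothelial cells, and the endothelial Adm, Ramp2 and Ramp3 values are 0.19, -0.04 and 0.02.

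Calcrl, the shared receptor, was an endothelial gene in these data. Endothelial cells held 84.0% of its UMIs, with 445.8 CPM in young 1, 603.3 in young 2, 302.5 in aged 1 and 426.9 in aged 2. Both aged libraries were below both young ones, but aged 2 and young 1 were close, and the log2 fold change was -0.39 (SE 0.18). It ranged from -0.66 without aged 2 to -0.16 without aged 1. Clusters 8 and 9 had the highest levels, 887.7 ± 65.3 and 742.3 ± 122.2 (SD, n = 2) in young and 600.0 ± 101.3 and 565.6 ± 95.1 in aged libraries. Cluster 4 had the lowest, at 231.0 ± 25.9 and 261.0 ± 84.6. The clusters with most Calca were thus also those with most Calcrl, and cells with a UMI of both made up 3.35% and 3.93% of young and 0.81% and 0.82% of aged endothelial cells after thinning.

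Next in order of Calcrl level came smooth muscle and renin cells, the cells of the arteriole wall, with 156.4, 159.7, 107.5 and 144.7 CPM from 22 to 34 UMIs a library. Mesangial cells followed with 77.0 and 87.4 in young and 35.3 and 43.7 in aged libraries. The mesangial age groups were apart, and the log2 fold change was -0.95 (SE 0.18). Leaving out any 1 library gave -1.06 to -0.82. Over the same sums the endothelial markers were higher in the aged libraries (11% and 11.5% of their endothelial level in young, 14.6% and 15.1% in aged). Parietal epithelial markers in these sums were at 7.24% and 9.11% of their own level in young and 16.1% and 20.2% in aged libraries, with 4 of 8 and 6 of 8 markers detected and Pax8 and Dkk3 at 0 in every library. The part of either list in the Calcrl difference was not tested. Podocytes were lowest of the large classes, with 2.06 to 6.08 CPM.

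Ramp2, the accessory protein for the main adrenomedullin receptor, was the most confined to endothelial cells of the receptor genes by share of UMIs, at 88.4%. The levels were 749.9 and 624.1 CPM in young and 672.7 and 559.5 in aged libraries. The groups overlapped, and the log2 fold change was -0.04 (SE 0.17), with a 95% interval of -0.37 to 0.30. Its 5 endothelial clusters spanned a narrow range of means, from 511.9 in cluster 8 to 805.8 in cluster 9. Parietal epithelial cells had 30.0, 55.5, 56.6 and 34.8, from 4 to 18 UMIs a library, with overlap.

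In mesangial cells Ramp2 was at 12.2 and 11.9 CPM in young and 21.8 and 25.8 in aged libraries, from 12 to 140 UMIs. The log2 fold change was 1.08 (SE 0.27). Of the 4 members past the filter in mesangial cells, Calcrl and Ramp2 were among the 617 of 10537 genes called there by edgeR (5.86%), and the age groups did not overlap for 54.3% of all genes. Nothing is read from these calls, since the members were chosen on this contrast. The endothelial markers given above were also higher in the aged mesangial sums, with all 9 detected in each library. Mean Ramp2 was 12.1 CPM in young and 23.8 in aged mesangial sums, beside 687.0 and 616.1 in endothelial cells. The part of those markers in the Ramp2 difference was not tested. The direction turned when mixed cells were kept (-1.56), when doublets were kept (-0.12) and when cells were named one by one (-0.28).

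Ramp3, the other adrenomedullin accessory protein, had a second site outside the endothelium. Endothelial levels were 211.9, 192.6, 223.0 and 154.1 CPM in young 1, young 2, aged 1 and aged 2, with overlap and a log2 fold change of 0.02 (SE 0.17, 95% interval -0.31 to 0.35). T and NK cells had 225.1, 168.0, 303.3 and 253.8, from 15 to 51 UMIs in 29 to 81 cells. The aged T and NK libraries were above the young ones, but their counting intervals overlapped, with 126.0 to 371.3 in young 1 and 188.9 to 333.6 in aged 2. A single cell held 16 of the 51 Ramp3 UMIs of aged 2, which left 35. The counting interval does not allow for such uneven cells, and the order of the age groups was not tested without that cell. Endothelial and T and NK levels did not differ beyond the spread of the libraries. Within the monocyte and dendritic class, cluster 17, led by Cd209a, Il1b and Ccr7, had 184.2 and 133.1 in aged libraries, and cluster 11, led by Clec4e, Chil3 and F10, had 11.8 and 2.8.

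Ramp3 also separated the endothelial clusters. Cluster 0 had a mean of 256.9 CPM over the 4 libraries, cluster 9 had 205.2, cluster 1 had 190.3, cluster 8 had 65.3 and cluster 4 had 44.99. Clusters 4 and 8, which were lower in glomerular capillary markers, were lowest in every library. Mesangial Ramp3 rested on 45 UMIs in all.

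Ramp1, the accessory protein that makes the CGRP receptor, was found elsewhere. Smooth muscle and renin cells had 222.8 and 187.9 CPM in young and 107.5 and 217.1 in aged libraries, and the groups overlapped (log2 fold change -0.36, SE 0.29). Monocyte and dendritic cells had 162.0 and 117.5 in young and 103.2 and 81.7 in aged libraries. Aged macrophages had 57.4 and 15.3. The level was higher in smooth muscle and renin cells than in monocyte and dendritic cells in each of the 4 libraries, by little in aged 1, and the ranges of the classes over libraries overlapped. Endothelial cells had 0, 0, 3 and 4 Ramp1 UMIs, and 0 counts in young 1 allow up to 0.47 CPM.

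Of the 2 members past the filter in smooth muscle and renin cells, Calcrl and Ramp1, edgeR called 0 (0 at an unadjusted p under 0.05, and 0 by DESeq2), where it called 76 of 3379 genes (2.25%). Of the 1 in parietal epithelial cells, Ramp2, it called 0 (also 0 at an unadjusted p under 0.05, and DESeq2 gave no adjusted p), where it called 164 of 4138 (3.96%). The age groups did not overlap for 49.6% of the genes tested in parietal epithelial cells and 43.2% in smooth muscle and renin cells.

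Receptor and accessory protein transcripts were also counted in the same cells, since the receptor works only as a pair. At 1000 UMIs a cell, Calcrl and Ramp2 were both detected in 16.1% of endothelial cells in young 1, 19.0% in young 2, 11.2% in aged 1 and 13.4% in aged 2. Calcrl and Ramp3 were both detected in 5.95%, 7.29%, 3.94% and 3.41%. Calcrl with Ramp1 was found in 2.99% and 3.57% of young smooth muscle and renin cells, which is 2 cells each, and in 0 of 57 and 0 of 36 aged ones; unthinned it was 23.9%, 21.7%, 12.1% and 25%. Unthinned, the endothelial pair Calcrl and Ramp2 was in 44.5%, 49.9%, 34.9% and 52.5%, so the order of the libraries changed with depth. Cells under 1000 UMIs, 19 to 198 endothelial cells a library, were left out of the thinned shares. In podocytes each receptor gene was detected in at most 1.20% of thinned cells, at unthinned median depths of 4200 UMIs in young 1 podocytes and 2316 in young 1 endothelial cells. The podocyte shares were taken as the background.

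**Figure D4:**
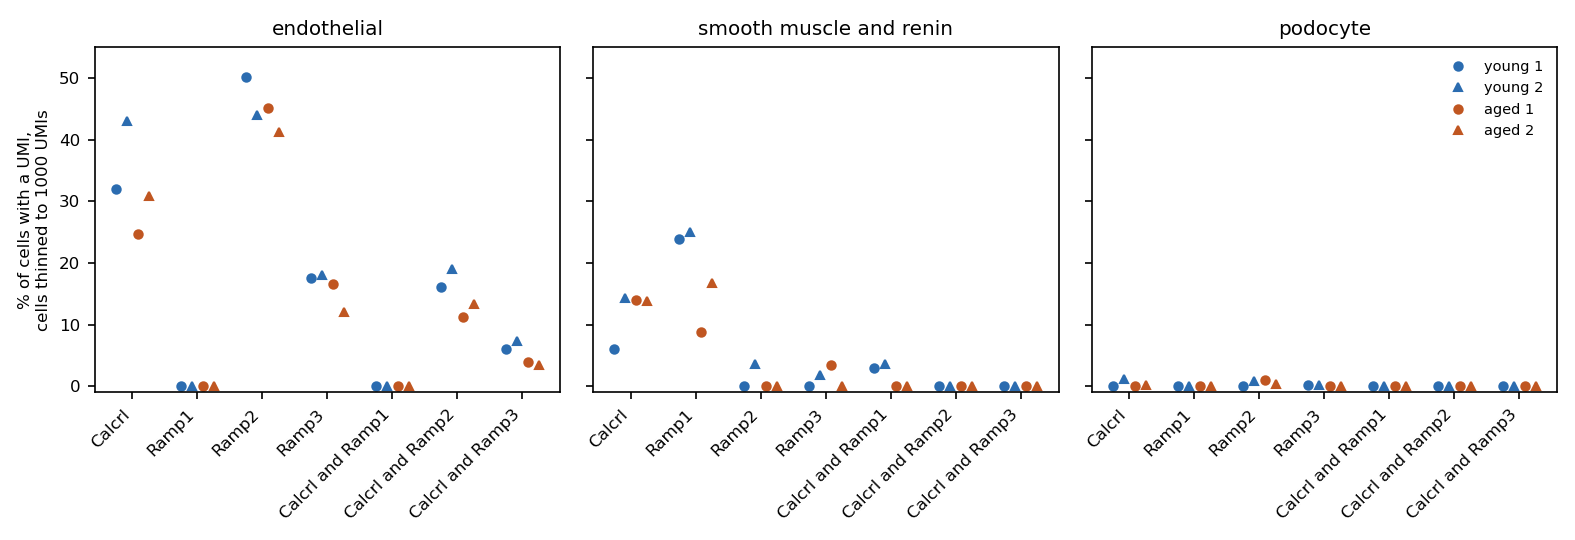
Share of cells with a UMI (y axis, percent, after thinning each cell to 1000 UMIs) for Calcrl, each Ramp gene and their pairs (x axis) in 3 cell classes, 1 point per library. Calcrl with Ramp2 reaches 11.2% to 19.0% of endothelial cells, Ramp1 appears in smooth muscle and renin cells, and podocytes lie at or near 0.

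Across 37 sums of cells by class and library, the genes most alike to each member in log2 level were found for the 6 members with enough UMIs. For Adm they were Coro2b (Pearson r = 0.92), Uaca (0.87) and Plekhg1 (0.86), and for Ramp2 Cmtm8 (0.93), Kdr (0.89) and Cyp4b1 (0.88). Calcrl was nearest to Esam (0.84), Gja4 (0.83) and Atp2a3 (0.83), and Ramp3 to Klk8 (0.90), Ctla2a (0.81) and Prkch (0.81). Ramp1 was nearest to Adap1 (0.81), Trpv2 (0.80) and Asb2 (0.75). Calca had the weakest best match, Esm1 (0.73), then Sybu (0.72) and Bbs9 (0.71). The sums share libraries and depth, so these values describe the pattern only.

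Genes that process, clear or transmit these peptides were examined from 4 lists, which were drawn up with earlier results of these data known. Ackr3, a scavenger receptor that takes up adrenomedullin, fell in podocytes from 88.6 and 85.1 CPM in young to 34.7 and 40.7 in aged libraries (log2 fold change -1.16, SE 0.14, edgeR adjusted p = 4.63e-06). It was called in 10 of 11 alternatives, with a log2 fold change of -1.29 to -1.02 and an edgeR or DESeq2 adjusted p of 3.44e-20 to 0.138, the highest with mixed cells kept. Ece1, a metallopeptidase that cleaves vasoactive peptides, rose in podocytes (0.96, SE 0.20, edgeR adjusted p = 0.003), but was called in 6 of 11 alternatives and turned to -0.61 with mixed cells kept. Pam, the enzyme that amidates CGRP and adrenomedullin, was at 72.3, 96.3, 94.6 and 94.8 CPM in podocytes and was not called (0.24, SE 0.14). Mme, the podocyte-rich peptidase neprilysin, had 446.1, 488.9, 430.7 and 418.9 there and was not called either (-0.08, SE 0.13).

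Of the 17 genes of processing and clearance, edgeR called 2 higher and 1 lower of 12 tested in podocytes, 2 higher and 2 lower of 14 in endothelial cells, and 0 higher and 2 lower of 11 in mesangial cells, where all-gene shares were 5.61%, 6.08% and 5.86%. In endothelial cells Dpp4, which trims the ends of peptides, fell from 10.7 and 20.3 to 1.98 and 1.53 CPM (-2.96, SE 0.30, edgeR adjusted p = 7.39e-06). Endothelial Mme, near its detection limit, fell from 1.10 and 4.71 to 0.50 and 0.67 (-2.02, SE 0.57, edgeR adjusted p = 0.0435). It was called in 4 of 11 alternatives, at -2.82 to -0.83, the smallest fall without young 2. Cpd, a carboxypeptidase of the secretory route, fell in mesangial cells (-0.89, SE 0.16, edgeR adjusted p = 0.00778). Gpr182, an endothelial scavenger receptor, was not called in podocytes (-0.43, SE 0.23), endothelial cells (0.04, SE 0.18) or mesangial cells (0.68, SE 0.23).

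Of the 39 genes of the cyclic AMP list, 3 rose and 0 fell of 31 tested in podocytes, 6 and 0 of 34 in endothelial cells, and 3 and 0 of 30 in mesangial cells (all-gene shares 5.61%, 6.08% and 5.86%), with median log2 fold changes of 0.13, 0.16 and 0.20 beside medians of 0.0035, -0.0065 and -0.0101 over all genes tested. Crem, a cyclic AMP responsive transcription factor, rose in podocytes (0.48, SE 0.14), endothelial cells (0.88, SE 0.16) and mesangial cells (1.38, SE 0.34), with edgeR adjusted p = 0.0351, 0.00224 and 0.0351. Crem was called in 4 of 11 alternatives in podocytes (0.28 to 0.56), 8 of 11 in endothelial cells (0.69 to 1.07) and 5 of 11 in mesangial cells (0.53 to 1.91). Pde4b, which breaks down cyclic AMP, rose in podocytes (0.72, SE 0.16, edgeR adjusted p = 0.00656), endothelial cells (1.15, SE 0.15, 0.000102) and smooth muscle and renin cells (1.13, SE 0.24, 0.015). Its podocyte call held in 6 of 11 alternatives (0.41 to 1.08). Pde3a, another such enzyme, rose in endothelial cells (1.05, SE 0.20, edgeR adjusted p = 0.00277). Akap12, a scaffold for protein kinase A, rose in mesangial cells (2.10, SE 0.32), parietal epithelial cells (1.13, SE 0.16) and endothelial cells (0.76, SE 0.19), with edgeR adjusted p = 0.00359, 0.000947 and 0.0171. The mesangial sums in which it rose also held more of the parietal epithelial markers in aged libraries, as given above. Smooth muscle and renin markers in the parietal epithelial sums were at 5.65% and 7.39% of their own level in young and 12.7% and 17.3% in aged libraries. Of these 8 markers, 3 to 5 were detected, with Cnn1 and Akr1b7 at 0 in every library. Myh11 was at 0 in both young libraries, and Ren1 and Rgs5 were at 0 in young 1 and both aged ones. Tagln, another marker of this list, was also a leading gene of cluster 15, the parietal epithelial cluster. The part of these markers in the Akap12 values was not tested. Prkar1b, a regulatory subunit of that kinase, rose in mesangial cells (1.52, SE 0.29, edgeR adjusted p = 0.0106). Crtc3, a coactivator of the cyclic AMP response, fell in smooth muscle and renin cells (-1.21, SE 0.26, edgeR adjusted p = 0.0198), a call that held in 6 of 11 alternatives (-1.34 to -1.07). Mesangial markers in those sums were at 29.9% and 33.1% of their own level in young and 41.2% and 40.9% in aged libraries, with all 8 detected, and their part was not tested.

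The list of 22 hypoxia-inducible genes also held regulators of the response, such as Hif1a, so its counts are not of induced genes alone. Of these 22, 4 rose and 1 fell of 20 tested in podocytes, 3 rose of 21 in endothelial cells and 3 rose of 19 in mesangial cells. The medians were -0.03, 0.27 and 0.11, beside the same all-gene medians and call shares. Pfkfb3, which drives glycolysis, rose in podocytes (1.01, SE 0.21), endothelial cells (0.98, SE 0.14) and mesangial cells (1.36, SE 0.25), with edgeR adjusted p = 0.00211, 0.000347 and 0.00975. Its podocyte call held in 7 of 11 alternatives (0.58 to 1.23). P4ha2, a collagen prolyl hydroxylase, rose in podocytes (0.72, SE 0.14), endothelial cells (0.81, SE 0.14) and mesangial cells (1.09, SE 0.21), with edgeR adjusted p = 0.00171, 0.00107 and 0.0115. Ddit4, a stress-induced inhibitor of mTOR signalling, rose in podocytes (1.06, SE 0.24, edgeR adjusted p = 0.00585), but was called in 7 of 11 alternatives and turned to -0.10 with mixed cells kept. Hif1a, which encodes the oxygen-regulated factor, rose in mesangial cells (1.04, SE 0.20, edgeR adjusted p = 0.0108) and was not called in podocytes (-0.08, SE 0.15) or endothelial cells (0.48, SE 0.14, edgeR adjusted p = 0.0594).

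In parietal epithelial cells Pam (-0.88, SE 0.26), Ackr3 (-0.42, SE 0.24), Mme (-0.27, SE 0.28), Hif1a (-0.63, SE 0.28) and Crem (1.13, SE 0.47) were not called. In smooth muscle and renin cells Pam (0.07, SE 0.30), Crem (0.03, SE 0.25) and Hif1a (0.49, SE 0.29) were not called. Pam was not called in endothelial cells (-0.15, SE 0.14) or mesangial cells (0.23, SE 0.25), nor was Ackr3 in endothelial cells (0.07, SE 0.34).

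Among 12 related peptides and receptors, 2 were tested in each of podocytes, endothelial cells and mesangial cells. Pth1r, the parathyroid hormone receptor of the same receptor family, fell in mesangial cells from 121.9 and 115.3 to 54.9 and 53.9 CPM (-1.02, SE 0.16, edgeR adjusted p = 0.00407) and in parietal epithelial cells (-1.66, SE 0.34, edgeR adjusted p = 0.0107). Podocyte markers in the parietal epithelial sums were at 7.11% and 6.89% of their own level in young and 3.09% and 3.81% in aged libraries, with all 9 detected, and their part was not tested. In all, edgeR called 11 of 65 genes of the 4 lists in podocytes, 13 of 71 in endothelial cells, 9 of 62 in mesangial cells, 2 of 33 in parietal epithelial cells and 2 of 32 in smooth muscle and renin cells, beside all-gene shares of 5.61%, 6.08%, 5.86%, 3.96% and 2.25%. Those in endothelial and mesangial cells were 0 when young 1 or young 2 was left out, and the podocyte count was 0 with mixed cells kept and 2 by DESeq2.

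**Figure D5:**
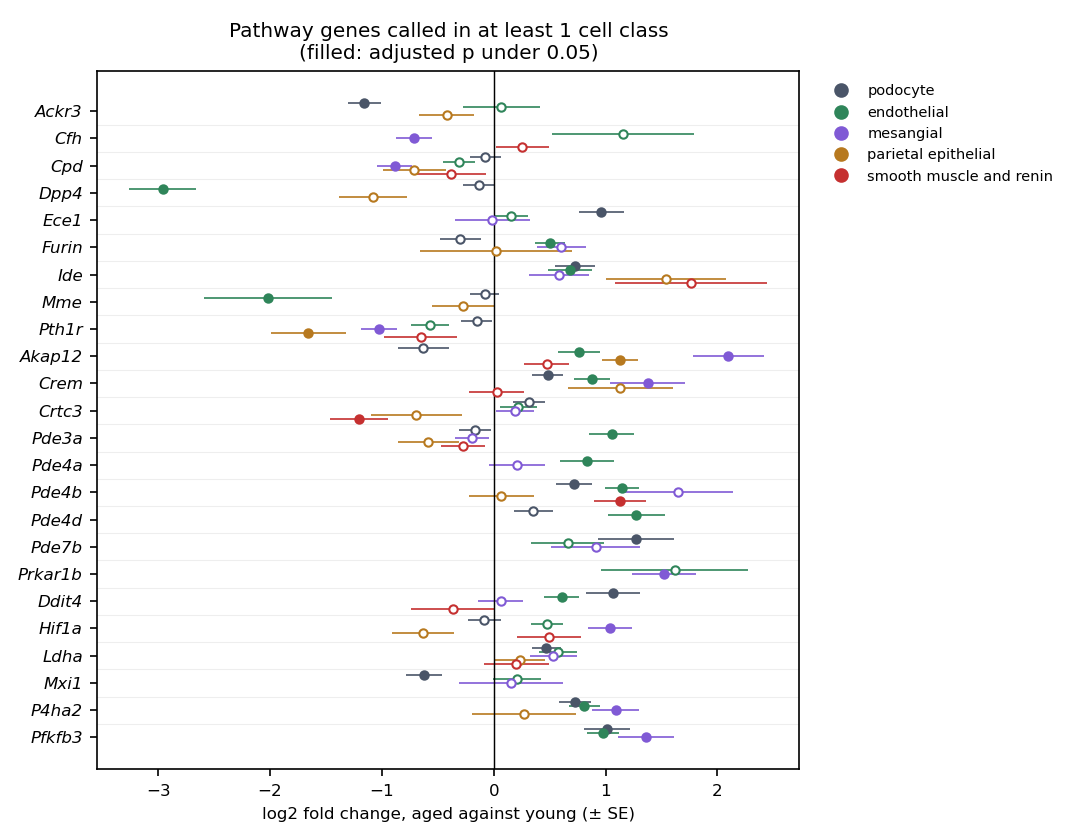
Log2 fold change of aged against young libraries (x axis) with its standard error for the 24 pathway genes called in at least 1 class, by class (colour); filled points passed an edgeR adjusted p under 0.05. Crem, Pde4b, Pfkfb3 and P4ha2 lie above 0 in each class where they are filled, and Ackr3 is lower in podocytes at -1.16.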

How the data were processed

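Per the labels' protocols, glomerular cells were sequenced as 10x 3' libraries, 2 young and 2 aged. The deposited values were raw UMI counts per gene and barcode, without normalization. Cell Ranger 3.1.0 is named per the labels' protocol and 6.0.1 per the file headers and the submitters' processing notes, with GRCm38. The sources do not say which of these versions produced the tables.

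Barcodes with at least 500 genes and at most 20% mitochondrial UMIs were kept, and the top doublet scores were removed at 0.8% per 1000 barcodes, since the caller's own threshold was not used. Cells were clustered with scanpy 1.11.5 (2000 variable genes, 30 components, resolution 1) without the 7 genes, 3 of which would have been variable genes. A cluster was named from marker lists where its best class reached 0.35 of the best level with at least 3 markers detected. In addition, no unrelated class could reach 0.25 of the best class. Classes taken as related were mesangial with smooth muscle and renin, and parietal epithelial with tubule. Macrophage, neutrophil and T and NK were each taken as related to monocyte and dendritic. These cut-offs were set after seeing the data. Single cells carrying markers of 2 unrelated classes were left out.

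UMIs were summed per class and library and tested across all genes with edgeR 4.0.16 (quasi-likelihood test, TMM, Benjamini-Hochberg adjusted p under 0.05). Standard errors were derived from that test. DESeq2 1.42.0, no TMM, no count filter, a replicate block, each library left out, doublets kept, mixed cells kept and cells named one by one were alternatives, and fits of single clusters were added after seeing the data. The fit was tested on simulated data. The 7 genes and the pathway lists were chosen with earlier results of these data known. The text names the 7 genes everywhere, Pam, Mme, Ackr3, Gpr182, Calcr, Crem and Hif1a where past the filter, up to 6 called pathway genes of smallest p in each class, and the 3 genes most alike to a member with at least 50 UMIs. Calcr did not pass the filter. Of 52636 gene IDs, 52489 were in GENCODE vM21.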

Additional observations from a re-analysis of the deposited data

Results flagged for a closer look

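The Calca difference between aged and young libraries had opposite signs in the 2 classes that carried most of its UMIs. The log2 fold change was 1.80 in podocytes and -1.46 in endothelial cells, with both aged libraries above both young ones in the first and below both in the second. The endothelial clusters did not all fall. Their values were 0.10, -0.64, 2.18, -0.57 and -1.60 in clusters 0, 1, 4, 8 and 9, that of cluster 4 from 1 Calca UMI in each young library. The difference between the classes was not tested.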

How the results depend on the processing

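The members' values held their sign with library size in place of TMM and with DESeq2, except endothelial Ramp3 (-0.1023 with library size) and parietal Ramp2 (0.06509 with DESeq2). The Calca value in podocytes was 1.595 with doublets kept, 1.382 with mixed cells kept (not called) and 1.987 in cluster 6 alone, and leaving out 1 library gave 1.604 to 1.991. In endothelial cells Calca was -1.664 with cells named one by one, and -1.638 to -1.291 with 1 library left out; it was not called with no count filter or without young 1 or young 2. By cluster, chosen after seeing the data, endothelial Calca was 0.1012, -0.6393, 2.179 and -0.5707 in clusters 0, 1, 4 and 8, Adm was -0.3015, 0.6152 and -0.09882 in clusters 0, 4 and 8, and Calcrl was 0.3286 in cluster 4. With 1 library left out, Adm ranged from 0.199 to 0.5003 in podocytes and from -0.002954 to 0.4475 in endothelial cells, endothelial Ramp2 from -0.2094 to 0.1648 and endothelial Ramp3 from -0.2687 to 0.2649. Mesangial Calcrl was -0.7605 with doublets kept and -1.461 with mixed cells kept. Mesangial Ramp2 turned to -0.1201 with doublets kept, -1.558 with mixed cells kept and -0.2817 with cells named one by one. Ddit4 and Ece1 in podocytes turned to -0.1022 and -0.6067 with mixed cells kept. The cause was not tested.

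Genes called in podocytes were 264 by DESeq2, 9 with mixed cells kept and 157 with cells named one by one (298 to 1282 with 1 library left out). In endothelial cells they were 500 by DESeq2 and 0 with no filter (2277 at an unadjusted p under 0.05), and 0 to 760 with 1 library left out. In mesangial cells they were 364 by DESeq2, 1215 with no filter and 309 with doublets kept (10 to 1685, lowest without young 1). In parietal epithelial cells they were 48 by DESeq2 and 295 with no filter (71 to 209). In smooth muscle and renin cells they were 44 with library size only, 22 by DESeq2, 117 with no filter and 29 with cells named one by one. Pathway genes called were 2 by DESeq2, 0 with mixed cells kept and 2 with cells named one by one in podocytes (4 to 18), 0 with no filter in endothelial cells (0 to 12), 17 with no filter in mesangial cells (0 to 19), 1 by DESeq2 and 4 with doublets kept in parietal epithelial cells (2 to 4), and 0 by DESeq2, 1 with mixed cells kept and 1 with cells named one by one in smooth muscle and renin cells (0 to 2). With library size only, calls split 381 higher and 509 lower in endothelial cells (516 and 285 with TMM), 350 and 277 in podocytes (405 and 207) and 338 and 383 in mesangial cells (402 and 215), as the median moved to -0.1284 in endothelial and -0.1115 in mesangial cells.

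For the replicate numbers, each gene's log level was taken as its deviation from the mean of its age group. These deviations correlated at -0.044 to 0.066 between same-numbered young and aged libraries, by class. With so few libraries per age, these values cannot show whether the numbers mark a pairing or share only a name. With the replicate block, 1564 genes were called in endothelial, 1388 in mesangial, 265 in parietal epithelial and 130 in smooth muscle and renin cells, and 17 and 5 pathway genes in mesangial and parietal epithelial cells. A library left alone in its group is assumed to vary like the other group. Cells named one by one gave too few parietal epithelial cells in young 1 (16) for a fit. Few cells or UMIs limit the values for Calcb and for the smaller classes, and young macrophages, with 3 and 10 cells, were not used.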
